A study of Mus musculus with 4 samples.

Results

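The alveolar type 1 rich spots were the spots of each lung section in which Rtkn2, Clic5, Pdpn, Akap5 and Gprc5a, 5 marker genes of alveolar type 1 cells, took the largest share of the RNA molecules counted. Spots with at least 2000 unique molecular identifiers (UMIs, each standing for 1 captured RNA molecule) were ranked within their section by the summed UMIs of the 5 markers over the total of the spot, and the highest 10% were taken. This gave 464 spots of 4632 with at least 2000 UMIs and of 4933 in all, namely 78 and 44 in the non-vaped (NV) male and female and 149 and 193 in the vaped (V) male and female. The data were Visium spatial transcriptomes of cryosections of the upper pulmonary branches from 4 C57BL/6J mice, 1 section each, so that each group held 1 male and 1 female and the sections served as the replicates. V mice were 6 to 8 weeks old at the start and breathed e-vapor of Peach Ice flavored vape juice from JUUL pens in whole-body chambers for 4 h a day on 5 days a week over 9 weeks. NV mice were not exposed to e-vapor. A Visium spot covers several cells, so these spots were enriched for type 1 cells and were not pure. Values for the 4 sections are given throughout in the order NV male, NV female, V male and V female, and levels are CPM, the UMIs of a gene summed over a set of spots and scaled by the total of that set.

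Alveolar type 1 cells are broad, very thin epithelial cells that line most of the gas exchange surface and share a fused basement membrane with the capillary below. They hold the barrier with tight junctions, are rich in caveolae, move sodium and water out of the airspace, and signal to the endothelium, in part through VEGF-A. In the adult lung they can arise from alveolar type 2 cells, the cuboidal neighbors that make surfactant.

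The 4 sections held 9386470, 6957392, 11880468 and 34308556 UMIs, and the members held 891886, 520300, 996994 and 1844199 of them. The V male section stood apart. Of its spots outside the members, 99.9% were parenchyma (spots in which the summed share of Sftpc, Sftpb, Tmem100 and Calcrl reached at least 50% of the section median), against 70.4% to 77.5% in the other 3 sections. Its summed level of 7 cardiac muscle genes in those spots was 13.8 CPM, against 6515 to 12094 CPM in the others, and its 6 club cell genes summed to 333 CPM against 2491 to 21869 CPM. Of the members, 97.7% to 100% were parenchyma spots in each section. Results that rest on the V male are given with and without it, and the comparison with other spots is also given for parenchyma spots alone. Barcodes recurred between sections, 277 to 1167 per pair as the Visium grid repeats, and 0 of 3522 recurring pairs had identical profiles.

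The 5 markers chose the members, and their values are a description with no test. Rtkn2 lies at chr10:67979570-68059740 on GRCm38 (plus strand). Clic5 (chr17:44188584-44280172, plus) encodes a chloride intracellular channel protein tied to the actin cortex, Pdpn (chr4:143267431-143299564, minus) the surface glycoprotein podoplanin, Akap5 (chr12:76324891-76334153, plus) a scaffold of protein kinase A, and Gprc5a (chr6:135065651-135084709, plus) a retinoic acid inducible orphan receptor. Their sum stood at 2481, 2470, 3714 and 2884 CPM in members and at 1081, 801, 2100 and 1025 CPM in the other spots. Clic5 and Gprc5a gave most of it, at 32.6% to 37.0% and 32.1% to 33.2% of the marker UMIs, and Rtkn2 the least, at 7.86% to 10.4%. The last spot inside the threshold stood at 2112, 1974, 3280 and 2434 CPM and the first outside at 2112, 1960, 3270 and 2433 CPM, so that the boundary cut through a continuous range. A member held a median of 24, 25.5, 21 and 24 marker UMIs against 12, 11, 13 and 16 in the other spots, and all 5 markers were found in 74.4%, 65.9%, 64.4% and 68.9% of members against 33.4%, 33.4%, 48.4% and 46.4% of the other spots.

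Such counts carry sampling noise that the ranking selects. Members held a median of 10241.5, 10110.5, 5645 and 8270 UMIs in all, against 10166, 11209.5, 6585.5 and 13212 in the other spots. Results with spots thinned to 2000 UMIs are given at the end. The UMIs of each spot were also split at random and members chosen on one part. These included 48 of 78, 32 of 44, 85 of 149 and 121 of 193 members of the main rule. The main rule used all UMIs, that part among them, so some of this agreement was built in. For the members chosen on one part, the marker sum in the other part was 1.78, 2.34, 1.33 and 2.07 times that of the other spots. For the members of the main rule, chosen and measured on all UMIs, it was 2.29, 3.08, 1.77 and 2.82 times. The difference was smaller in held-out UMIs and kept its direction in all 4 sections, and it was smallest in the V male, where the other spots were themselves rich in the markers.

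Outside the rule, alveolar type 1 genes were higher in the members. All 22 genes of the list passed the test of members against the other spots of the same sections (edgeR quasi-likelihood on UMI sums per section, where a call needed an adjusted p below 0.05 together with a log2 change beyond 0.25 either way), with a median log2 fold change of 0.75 beside -0.01 over all genes tested. Of all 12789 genes tested, 9.92% were called, 2.88% higher and 7.05% lower. Each of the 22 genes was higher in members in all 4 sections, which held for 19.8% of all genes tested, while 7.27% were lower in all 4. In parenchyma spots alone 20 of the 22 were called, with a median of 0.50, where 2.37% of 11890 genes tested were called, 1.79% higher and 0.58% lower. In held-out UMIs 20 were called, with a median of 0.68, and without the V male 22, with a median of 0.86. Without the V female 19 were called. These genes entered the score only through the total of each spot. The label therefore held in genes that the rule did not use. In sums over spots, more type 1 cells and more RNA per type 1 cell cannot be told apart.

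**Figure D1:**
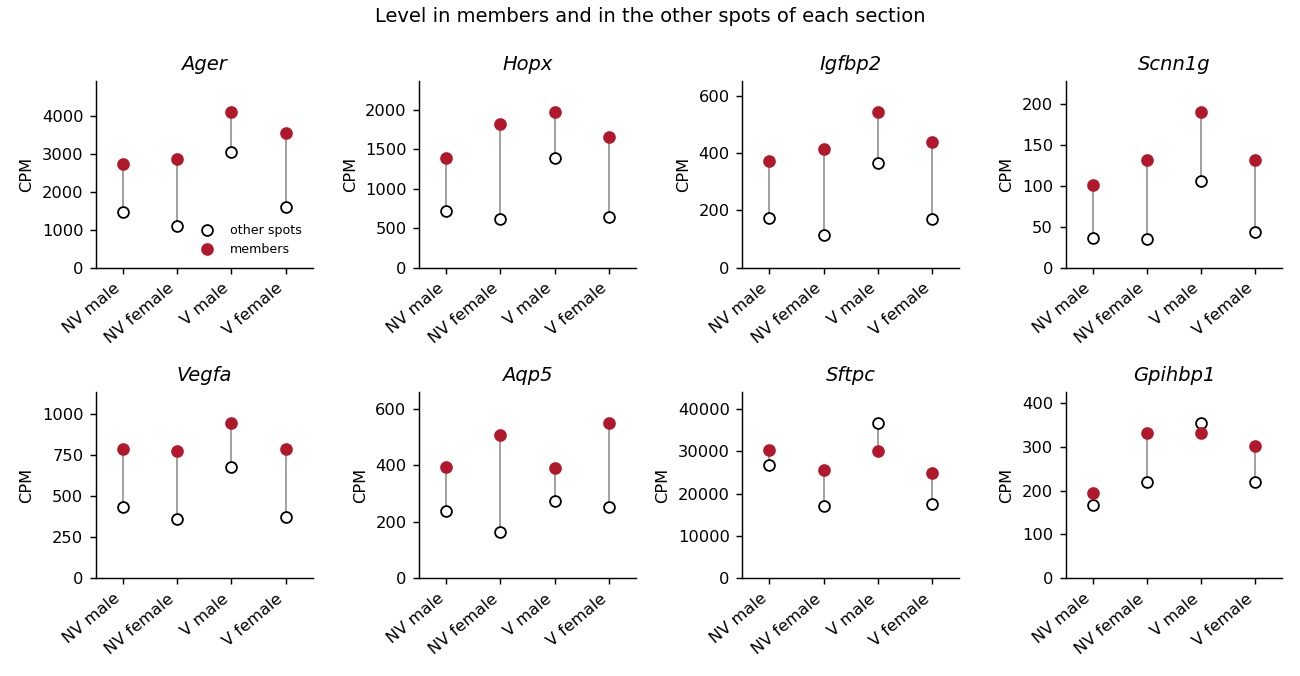
Level in CPM (vertical axes, each starting at 0) of 8 genes in the members (filled) and the other spots (open) of each section. The 6 type 1 genes outside the rule, Ager to Aqp5, were higher in members in all 4 sections, while Sftpc and Gpihbp1 stood lower in the members of the V male section.

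Ager, which encodes the receptor for advanced glycation end products and lies at chr17:34597862-34600936 (plus strand), stood at 2738, 2881, 4107 and 3545 CPM in members and at 1469, 1087, 3044 and 1599 CPM in the other spots. Members were higher in every section, by a log2 fold change of 0.84 ± 0.12 (SE; edgeR quasi-likelihood, adjusted p = 4.64e-05; 0.55 in parenchyma spots). Within members the Ager UMIs of a spot ranged widely, from 0 to 154 in the NV male around a median of 25, and at least 1 was found in 98.7% to 100% of members. The same held for 98.9% to 100% of other spots, whose medians were 15 to 23 against 23 to 31 in members. The members therefore differed from their surroundings in the amount of Ager and not in whether it was found.

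Scnn1g (chr7:121734479-121768475, plus strand), the gamma subunit of the epithelial sodium channel that draws sodium out of the airspace, showed the largest difference of the list. It stood at 101, 131, 190 and 131 CPM in members against 35.9, 35.3, 106 and 43.0 CPM in the other spots, a fold of 2.42 (log2 fold change 1.28 ± 0.12, edgeR quasi-likelihood adjusted p = 3.78e-07). The other subunits were higher too. Scnn1a, the alpha subunit, was higher by 0.87 ± 0.12 and Scnn1b, the beta subunit, by 0.93 ± 0.14 on the log2 scale. The water channel Aqp5 stood at 395, 505, 390 and 550 CPM against 238, 165, 274 and 251 CPM, a log2 fold change of 0.86 ± 0.13. These were the 4 called of 10 genes of ion and water transport. The sodium pump subunit Atp1b1 did not pass, at -0.27 ± 0.10.

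The promoter windows of Ager and Scnn1g, 250 bases before the annotated start, are shown as the start regions of a defining type 1 gene and of the gene with the largest difference in the list, since the genes of the list moved together. They are taken from RefSeq on GRCm38.p6, plus strand, and capitals mark CACTTG, the letters of an NKX2 motif.

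Ager, chr17:34597600-34597849: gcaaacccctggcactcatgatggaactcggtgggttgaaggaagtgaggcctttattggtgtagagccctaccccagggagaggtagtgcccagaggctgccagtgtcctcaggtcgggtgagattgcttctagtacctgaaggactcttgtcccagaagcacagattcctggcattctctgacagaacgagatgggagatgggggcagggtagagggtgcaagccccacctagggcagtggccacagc

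Scnn1g, chr7:121734229-121734478: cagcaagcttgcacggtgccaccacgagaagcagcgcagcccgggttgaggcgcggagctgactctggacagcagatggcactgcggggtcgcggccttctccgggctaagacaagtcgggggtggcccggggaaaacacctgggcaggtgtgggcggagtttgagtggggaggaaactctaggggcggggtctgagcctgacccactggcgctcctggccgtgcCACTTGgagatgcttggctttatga

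Of the 5 markers and 22 further type 1 genes, 22 were matched in the RefSeq promoter table, with 31 windows. The NKX2 letters CACTTG, or CAAGTG on the other strand, were found in 3 of the 31 windows (9.68%), those of Cav2, Cldn18 and Scnn1g, against 11.6% of 32851 windows of all genes. The TEAD letters GGAATG, or CATTCC on the other strand, were found in 0 of 31 windows against 12.6% of all. These are letter matches in a short window and say nothing of binding.

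Signaling molecules of the alveolus were higher in members as well. Of 10 growth factors and guidance ligands 8 had counts enough for the test, and 7 were called higher, with a median of 0.82 (6 called in parenchyma spots, median 0.58). Igfbp2, which encodes an insulin-like growth factor binding protein and marks fully differentiated type 1 cells, stood at 373, 413, 543 and 437 CPM in members and at 175, 114, 365 and 168 CPM in the other spots, a log2 fold change of 1.08 ± 0.13 (edgeR quasi-likelihood, adjusted p = 1.16e-05). Vegfa, the endothelial growth factor, stood at 783, 773, 944 and 783 CPM against 435, 361, 674 and 371 CPM. Its difference was 0.75 ± 0.10, and the members were higher in all 4 sections. The semaphorins Sema3e, Sema3a and Sema3b, guidance ligands of nerves and vessels, were higher by 0.93 ± 0.12, 0.89 ± 0.15 and 0.82 ± 0.11, and Pdgfa, the factor that acts on alveolar myofibroblasts, by 0.59 ± 0.10. Wnt3a was called at 0.83 ± 0.23 over all spots and not in parenchyma spots, at 0.34. Bmp4 did not pass, at 0.38 ± 0.12.

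The chains of the basement membrane differed among themselves. Of 15 genes 7 were called higher and 0 lower. Col4a3 and Col4a4, which encode the alpha 3 and alpha 4 chains of collagen IV, were higher by 0.97 ± 0.13 and 0.60 ± 0.11, with Col4a3 at 133, 229, 232 and 179 CPM in members against 63.9, 62.2, 158 and 85.1 CPM. Col4a1, the alpha 1 chain made by many cell types, stood at 0.13 ± 0.10 and did not pass. Of the laminins, Lama3 and Lamb3, chains of epithelial laminins, were higher by 0.81 ± 0.13 and 0.47 ± 0.11, while Lama5 at 0.15 ± 0.11, Lamb2 at 0.04 ± 0.10 and Lamc1 at -0.05 ± 0.10 did not pass. In parenchyma spots 6 of the 15 were called, and Lamb3 at 0.22 was no longer among them.

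Junction and caveola genes rose in part. Of 14 tight and adherens junction genes tested, 7 were called higher (5 in parenchyma spots), led by Cldn18, the claudin of alveolar tight junctions, at 0.78 ± 0.11. Ocln (occludin), Cgn (cingulin), F11r (the junctional adhesion molecule JAM-A), Tjp1 (a scaffold of the tight junction) and Cdh1 (E-cadherin) were higher by 0.44 to 0.59. Cldn3 stood at 0.03 ± 0.12 and Epcam, found on epithelial cells in general, at 0.19 ± 0.13. Of 7 caveola genes 4 were called. Cav1, the caveolin of type 1 cells and endothelium, stood at 880, 1132, 1334 and 1160 CPM against 657, 697, 1175 and 755 CPM, a log2 fold change of 0.35 ± 0.10, the smallest of the 22 type 1 genes, and of 0.23, under the size threshold, in parenchyma spots. Cav2, Ehd2 and Cavin2 were higher by 0.46 ± 0.12, 0.47 ± 0.10 and 0.42 ± 0.10, and Cavin1 stood at 0.09 ± 0.10. Without the V female 3 junction and 0 caveola genes were called, without the NV male 5 and 1, and without the NV female 6 and 2.

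Among transcription factors, Hopx, the homeodomain protein that marks type 1 cells, stood at 1393, 1818, 1971 and 1650 CPM in members and 723, 622, 1392 and 642 CPM in the other spots, a log2 fold change of 0.96 ± 0.12 (edgeR quasi-likelihood, adjusted p = 1.75e-05). Foxa2 and Nkx2-1, factors of the whole lung epithelium, were higher by 0.69 ± 0.13 and 0.59 ± 0.11, and Nkx2-1 was at 0.26 in parenchyma spots. Cebpa, active in type 2 cells and in fat, was lower by 0.69 on the log2 scale (-0.69 ± 0.13) and did not pass in parenchyma spots, at -0.25. Of 13 genes of the YAP and TAZ pathway, which senses cell stretch, 4 were called higher and 1 lower. Tead1, a DNA-binding partner, was at 0.50 ± 0.11, Ccn1, a target gene, at 0.51 ± 0.14, Wwtr1, which encodes TAZ, at 0.36 ± 0.10, and Lats2, an inhibitory kinase, at 0.35 ± 0.11. Ankrd1, which is also abundant in heart, was lower (-1.27 ± 0.19) and stood at -0.07 in parenchyma spots. In parenchyma spots 2 of the 13 were called higher, Tead1 and Ccn1, as against 7 when the V male was left out of all spots, 1 when the V female was, and 2 for either NV section.

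Genes that mark the transition from type 2 to type 1 cells gave 5 called higher and 1 lower of 11 tested. Itgb6, an integrin chain that activates TGF-beta, was at 0.91 ± 0.15, the keratins Krt18, Krt19 and Krt8 at 0.71 ± 0.11, 0.59 ± 0.10 and 0.42 ± 0.12, and Hbegf, an EGF receptor ligand, at 0.54 ± 0.16. Clu (clusterin) was lower, at -0.57 ± 0.11. In parenchyma spots Itgb6, Krt18 and Krt19 were called, and Clu stood at -0.04. Of 7 genes of RAGE and its ligands tested, Ager, S100a6 at 0.39 ± 0.10 and Anxa1 at 0.36 ± 0.10 were called, while S100a8 and S100a9, alarmins of neutrophils, stood at 0.24 ± 0.12 and 0.22 ± 0.11. Without the V female 3 transitional genes and 1 of the RAGE list were called higher, without the NV male 4 and 1, without the NV female 3 and 2, and without the V male 6 and 5.

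The largest rises among all genes with at least 20 CPM and the same direction in every section were Scnn1g, Mab21l4, Igfbp2, Bdnf, Stx11, Col4a3, Hopx, Cdkn2b, Scnn1b and Sema3e, at 0.93 to 1.28. Each of the 10 was also called in parenchyma spots. Bdnf, a neurotrophin, stood at 44.8, 32.7, 47.1 and 46.6 CPM in members against 20.5, 15.9, 31 and 14.3 CPM, and Cdkn2b, an inhibitor of the cell cycle, at 35.9, 28.8, 46.1 and 31.4 CPM against 14.3, 11.7, 25.6 and 15.2 CPM. Stx11, a syntaxin of vesicle fusion, was higher by 0.98 ± 0.16. All 3 were higher in members of every section.

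Several lists of tissue outside the alveoli were lower in members. All 7 cardiac muscle genes were called lower (median -1.56), as were 4 of 4 brown fat genes tested (-1.23), 5 of 6 club cell genes (-0.98), 8 of 8 adventitial fibroblast genes (-0.74) and 4 of 6 smooth muscle genes (-0.73). In parenchyma spots 0 cardiac, 0 brown fat and 0 of 5 smooth muscle genes were called, along with 3 of 5 club and 4 of 8 adventitial genes. The largest falls were Car3, Tmem45b, Ttn, Cyp2a5, Cidea, Myoz2, Fcor, Tnni3, Cpt1b and Ppp1r1a, at -2.36 to -1.73, a group with genes of muscle and of fat, and 2 of the 10, Car3 at -0.50 and Ttn at -0.53, were called in parenchyma spots. Ttn, the giant protein of the sarcomere, stood at 165, 102, 1.0 and 114 CPM in members against 528, 484, 1.11 and 413 CPM, so that the fall rested on 3 sections and the V male held almost none. The summed cardiac and brown fat lists stood at 14.0 and 68.2 CPM in members of the V male and at 13.8 and 65.3 CPM in its other spots, and were not lower there. The share of calls that were higher was 29.0% over all spots and 75.5% in parenchyma spots. Without the V male 2153 genes were called against 1269 with it, and without the V female 412, with 3 of 8 adventitial, 1 of 5 smooth muscle and 2 of 4 brown fat genes lower. Of the other lists outside the gas exchange surface, 3 of 6 B and plasma cell genes and 2 of 6 mesothelial genes were lower, 0 of each in parenchyma spots. Without either NV section 1 B and plasma cell gene was called, and 2 of the 6 were higher in members of all 4 sections without being called. Of 4 ciliated cell genes tested, Tppp3 was higher (0.51 ± 0.10, and 0.41 in parenchyma spots) and Foxj1 and Ccdc153 were lower. Ccdc153 was low throughout, at 4.48, 3.84, 0 and 10.8 CPM in members against 5.69, 3.44, 0 and 24.6 CPM. It was not lower in every section, and the V male held none. The sum of the ciliated list stood at 492, 436, 286 and 464 CPM in members against 310, 247, 211 and 392 CPM, higher in all 4 sections. Of 5 lymphatic endothelial genes tested 0 were called. In the adventitial list Dcn (decorin) and Serpinf1, at -0.59 and -0.68, remained lower in parenchyma spots together with Col1a1 and Col1a2.

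**Figure D2:**
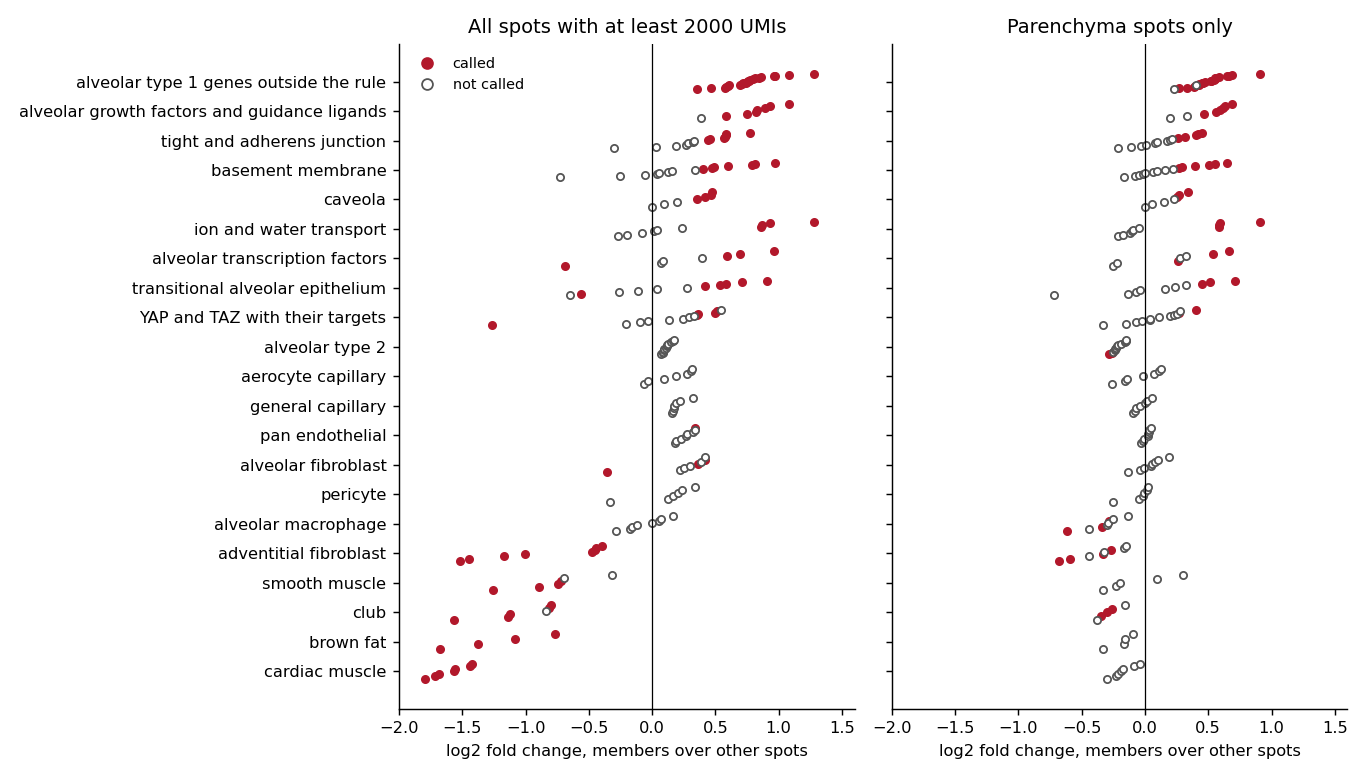
Each point is 1 gene of a list, placed by its log2 fold change of members over other spots (horizontal axis) in all spots with at least 2000 UMIs (left) and in parenchyma spots (right), filled where called. The type 1 genes lay right of 0 in both panels, and the cardiac muscle genes moved from between -1.79 and -1.42 to between -0.30 and -0.04.

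Neighboring cell types of the alveolus showed smaller differences. The 12 alveolar type 2 genes were not called, at a median of 0.11, and Sftpc, the surfactant protein C gene, stood at 30239, 25503, 29980 and 24870 CPM in members against 26833, 16989, 36668 and 17488 CPM, higher in 3 sections and lower in the V male. In parenchyma spots all 12 stood below 0, with a median of -0.22 and 2 called lower, although the choice of those spots used Sftpc and Sftpb. Of 7 aerocyte and 7 general capillary genes 0 were called, with medians of 0.19 and 0.18 over all spots and of -0.01 and -0.04 in parenchyma spots. Gpihbp1, a marker of general capillary cells, stood at 194, 331, 331 and 303 CPM against 168, 219, 355 and 219 CPM. Of 8 pan endothelial genes 1 was called higher and of 8 alveolar fibroblast genes 2 higher and 1 lower, with 0 of both lists in parenchyma spots. Without the V male 5 general capillary, 7 pan endothelial, 7 alveolar fibroblast and 4 type 2 genes were called higher. Of 8 alveolar macrophage genes 0 were called over all spots, and Chil3, Ear2 and Atp6v0d2 were lower in parenchyma spots, at -0.29, -0.34 and -0.61. Genes of neutrophils, T cells, pericytes and red blood cells gave 0 calls in both sets of spots, and 2, 0, 2 and 1 called higher without the V male.

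Across the whole range of the score, the type 1 genes outside the rule rose with it. Parenchyma spots were divided into 10 equal classes by score within each section. From the lowest to the highest class the sum of the 22 genes went from 6273 to 11559 CPM in the NV male, from 6553 to 13142 CPM in the NV female, from 10548 to 15647 CPM in the V male and from 6318 to 13513 CPM in the V female. The sum of the 12 type 2 genes went from 42334 to 42254, from 39064 to 36696, from 53083 to 41096 and from 34142 to 34648 CPM, and was highest in classes 2 to 4. The 7 general capillary genes went from 1613 to 1922, from 1877 to 2199, from 2459 to 2370 and from 1538 to 2132 CPM. The type 1 genes rose between the ends of the score in all 4 sections, while the type 2 sum fell in 3 of them.

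**Figure D3:**
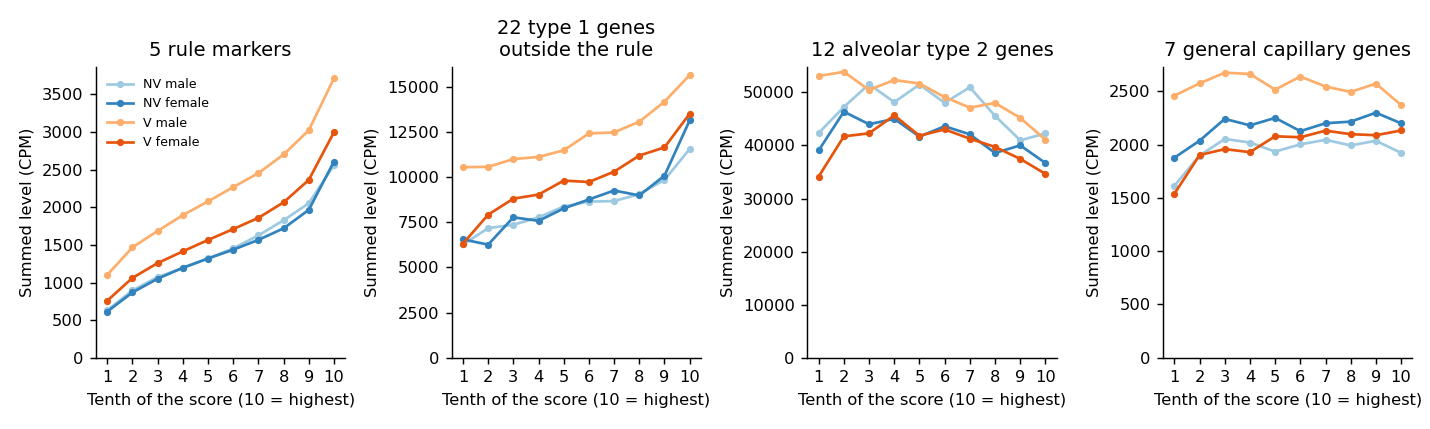
Summed level in CPM (vertical axes from 0) of the rule markers and of 3 gene lists in 10 classes of the score (horizontal axes, 10 the highest) over parenchyma spots, 1 line per section. The markers rise by construction; the 22 type 1 genes outside the rule climb in every section, with the V male line highest, while the type 2 and capillary lines stay within a narrower band.

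The members were also compared with alveolar type 2 rich spots, chosen in the same way by Lamp3, Slc34a2, Abca3, Sftpd, Etv5 and Cxcl15. Both sets had the same size, and 3, 3, 4 and 16 spots were in both, or 3.85%, 6.82%, 2.68% and 8.29% of each. With the general capillary rich spots the overlap was 6, 7, 11 and 29 spots, or 7.69%, 15.9%, 7.38% and 15.0%. Sets of this size drawn at random would share 10% on average. The overlap was larger with the capillary set in each section, and no test was run against that set. After the shared spots and the genes of both rules were set aside, 3.75% of 9990 genes were called between type 1 rich and type 2 rich spots, 1.91% higher and 1.84% lower in the type 1 rich spots. All 22 type 1 genes were higher, with a median of 0.54 beside -0.01 over all genes, and all 6 testable type 2 genes were lower. By CPM, 20 of the 22 were higher in all 4 sections and 0 lower in all 4, against 14.2% and 6.82% of all genes tested. In parenchyma spots all 22 and all 6 were called as well, where 3.63% of 9746 genes were called, 1.89% higher and 1.74% lower. With 1 section left out, 20 to 22 of the type 1 genes were called.

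Igfbp2 and Hopx were among the 10 largest rises. Igfbp2 stood at 383, 413, 545 and 448 CPM against 184, 192, 314 and 208 CPM in type 2 rich spots (log2 fold change 0.94 ± 0.07, edgeR quasi-likelihood adjusted p = 2.84e-23), and Hopx at 1408, 1850, 1971 and 1695 CPM against 783, 831, 1295 and 965 CPM (0.77 ± 0.05). On the other side Sftpc stood at 29375, 24145, 29834 and 24055 CPM against 45709, 40557, 50259 and 40674 CPM, a log2 fold change of -0.78 ± 0.03 (edgeR quasi-likelihood, adjusted p = 1.99e-40). Each of the 3 kept its direction in all 4 sections. The type 2 rich spots were chosen by genes of type 2 cells, so lower type 2 genes in the members follow in part from that choice. Against the other spots Sftpc was higher in members of all sections but the V male. Sftpb, Hc, Sftpa1, Napsa and Lpcat1, genes of surfactant, its processing and complement, were lower by 0.62 to 0.78, and Lyz1, a lysozyme of type 2 cells, fell by 0.88.

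Some families held members on both sides. The sodium channel subunits Scnn1a (0.64 ± 0.07), Scnn1b (0.78 ± 0.13) and Scnn1g (1.05 ± 0.11) were higher in type 1 rich spots, while the sodium pump subunit Atp1b1 was lower (-0.59 ± 0.06). The claudin Cldn18 was higher (0.40 ± 0.06) and Cldn3 lower (-0.65 ± 0.11). Of the transcription factors Hopx was higher and Cebpa lower (-0.53 ± 0.12). Sema3a (0.89 ± 0.15), Sema3e (0.69 ± 0.10), Vegfa (0.61 ± 0.05) and Pdgfa (0.59 ± 0.12) were among the 6 of 8 growth factors and ligands called higher, and Aqp5 was higher by 0.38 ± 0.06. Of 7 aerocyte and 7 general capillary genes 0 were called, as for 8 pan endothelial genes. The largest rises were Scnn1g, Stx11, Lrtm2, Igfbp2, Sema3a, Itprip, Akr1c14, Scnn1b, Hopx and Bdnf, at 0.76 to 1.05, and the largest falls Slco4c1, Anpep, Tmem163, Snhg11, Ank3, Mal, Ehf, Sgpp2, Lyz1 and Bex4, at -1.09 to -0.87.

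**Figure D4:**
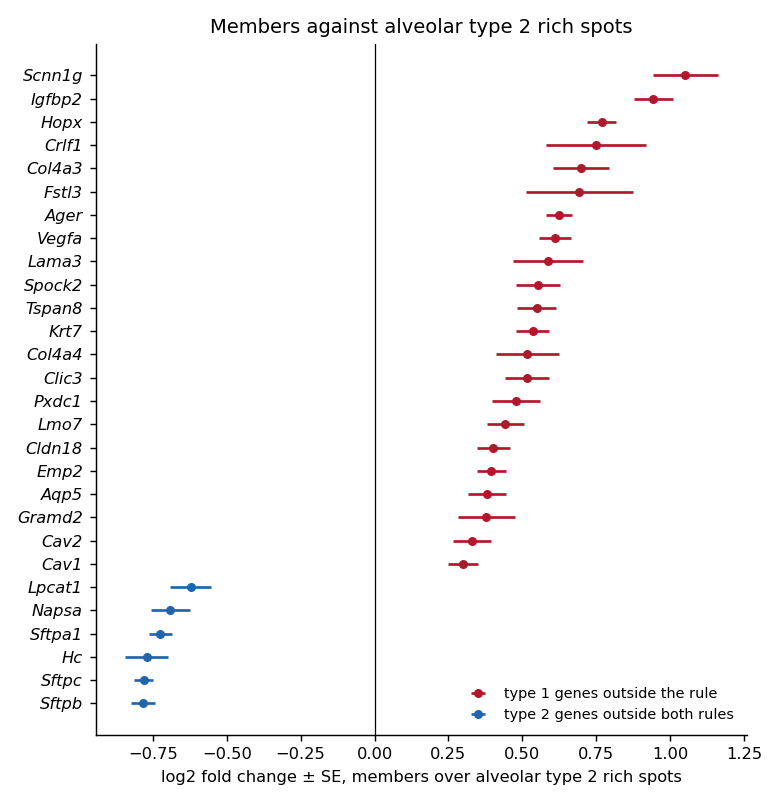
Log2 fold change ± SE (horizontal axis) of type 1 rich over type 2 rich spots for the 22 type 1 genes outside the rule (red) and the 6 type 2 genes outside both rules (blue), fitted over 4 sections. The red points lie between 0.30 and 1.05 and the blue points between -0.78 and -0.62, with no error bar reaching 0.

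The study asked what vaping changed in the lung, and the members of V and NV sections were compared with 2 sections a group. No gene was called. With edgeR's quasi-likelihood test 0 of 10037 genes (0.0%) passed, 322 had an unadjusted p under 0.05 (122 higher in V), and DESeq2 called 6. The lowest adjusted p was 0.27, for Hspa1a, a heat shock chaperone, at 66.2, 86.5, 10.0 and 12.5 CPM, a log2 fold change of -2.69 ± 0.31. Without the V male 94 genes were called and without the V female 98, each time with 1 V section whose spread was assumed equal to that of the NV sections. An exact permutation test on a single value cannot go below p = 0.33 (two-sided) with 2 sections a group. Exposure and the tissue make-up of the sections cannot be told apart.

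For the type 1 genes outside the rule, 0 of 22 were called, and 21 of 22 had log2 fold changes above 0, with a median of 0.26 beside 0.01 over all genes. Both V sections lay above both NV sections for 9 of the 22 and below for 0, against 14.9% above and 16.4% below over all genes. Ager stood at 2738 and 2881 CPM in NV and 4107 and 3545 CPM in V members (0.45 ± 0.16). Clic3, a chloride intracellular channel protein, stood at 218 and 234 against 344 and 321 CPM (0.57 ± 0.22), and Fstl3, a secreted binder of activin, at 24.7 and 32.7 against 53.2 and 42.8 CPM (0.76 ± 0.29). The other 6 of the 9 were Igfbp2, Cav1, Cav2, Krt7, Vegfa and Spock2. For Hopx, Aqp5, Scnn1g and Cldn18 the groups overlapped. Without the V male the median was 0.12 with 17 of 22 above 0, and without the V female 0.38 with 18.

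The 5 markers followed the same order as a description, since the rule took a fixed share of each section. Rtkn2 stood at 209 and 194 CPM in NV and 385 and 248 CPM in V members, Clic5 at 906 and 915 against 1213 and 1010 CPM, and Gprc5a at 796 and 800 against 1209 and 959 CPM. Pdpn and Akap5 were likewise above in both V sections. The V male was the highest section for each of the 5 markers. V members also held fewer UMIs a spot, with medians of 5645 and 8270 against 10241.5 and 10110.5 in NV members. The part of this depth in the order of the groups was not tested.

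**Figure D5:**
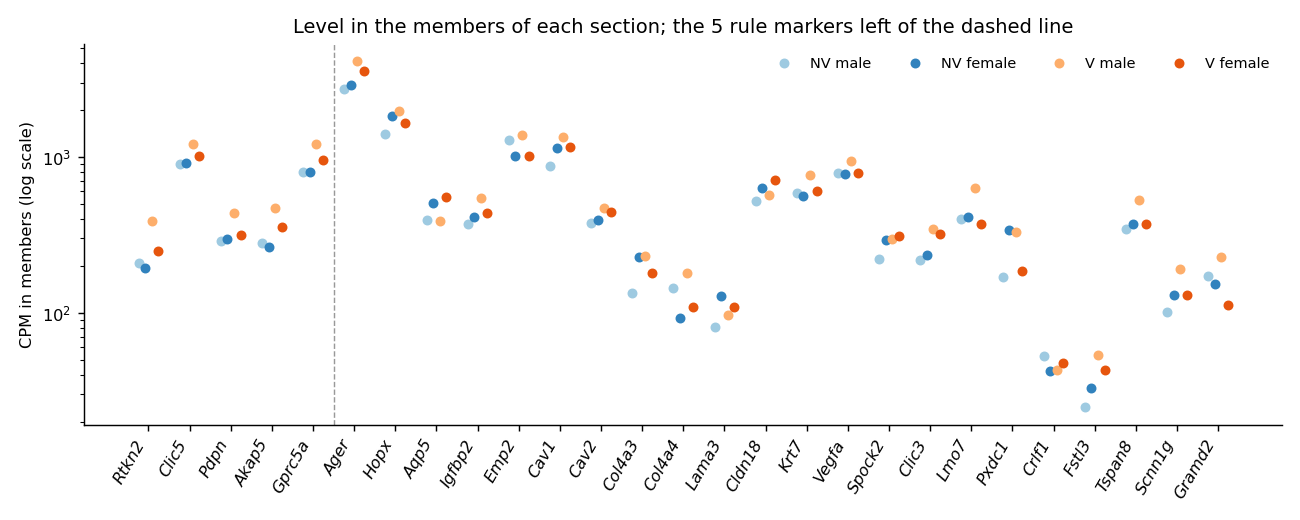
Level in CPM (vertical axis, log scale) of the 5 rule markers, left of the dashed line, and the 22 type 1 genes outside the rule in the members, 1 point per section. The V points lie above both NV points for all 5 markers and for 9 of the 22 genes, with no gene called.

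Of 21 genes on a list drawn from those the study names in the parenchyma, 19 could be tested, and these had log2 fold changes above 0 for V against NV members, at a median of 0.66, with 0 called. The study found them in the same sections, so their direction is not independent evidence. Both V sections lay above both NV sections for 5 of 21, against 14.9% of all genes. Cidea, a gene of fat droplets that the study also names, was not on the list and was too low for this test, at 3.36 and 5.77 CPM in NV and 0 and 193 CPM in V members. Gsto1, a glutathione transferase, stood at 87.5 and 67.3 CPM in NV and 124 and 200 CPM in V members (1.07 ± 0.31), and Cyp2b10, a cytochrome P450 of drug metabolism, at 508 and 490 against 919 and 585 CPM (0.59 ± 0.26). Cyp4b1 stood at 503 and 663 against 1238 and 671 CPM. Others were high in 1 V section. Angptl4, a regulator of lipid uptake, stood at 25.8 and 71.1 CPM in NV and at 218 and 23.9 CPM in V members, and Cyp1a1, the classic target of the aryl hydrocarbon receptor, at 3.36 and 1.92 against 99.3 and 4.88 CPM. With a V section left out only 1 V mouse remains, so calls on this list are not given for those fits. Between members and other spots, 6 of 21 were higher, among them Cyp2b10 (0.80 ± 0.12) and Prdx6 (0.68 ± 0.11), a peroxiredoxin, and 7 lower, among them Cyp2f2 (-1.12 ± 0.15), a club cell P450. In parenchyma spots 5 were higher and 4 lower, without the V female 5 and 3, and without the V male 9 and 9.

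The genes with the lowest p in V against NV members included immune and immediate early genes. Higher in both V sections were Igha, the immunoglobulin A heavy chain, at 70.6 and 50.0 against 299.9 and 176 CPM (1.95 ± 0.33), Marco, a scavenger receptor of macrophages, at 10.1 and 3.84 against 41.1 and 33.6 CPM (2.26 ± 0.44), Ear2, Lyz1 and Gadd45b. Lower in both were Hspa1b and Hspa1a, Nr4a1, an immediate early gene, at 220 and 92.3 against 28.1 and 32.5 CPM (-2.37 ± 0.41), Slco2b1, and Ighm, the immunoglobulin M heavy chain, at 553 and 546 against 114 and 215 CPM (-1.71 ± 0.33). The rule that named these 10 genes asked for groups that do not overlap, which held for 14.9% of all genes with V above and 16.4% with V below, and none passed the adjusted threshold. Among lists of other cells, all 6 B and plasma cell genes and all 7 cardiac muscle genes lay below both NV sections in both V sections, with medians of -0.87 and -1.73, and 4 of 8 alveolar macrophage genes lay above. Of the 12 type 2 genes 6 lay below and 1 above, with a median of -0.19 and 0 called, on balance the other way from the type 1 list. Over all genes 14.9% lay above and 16.4% below. The cardiac genes summed to 4754 and 3454 CPM in NV and to 14.0 and 2508 CPM in V members. Their part in the results was not tested.

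Last, the difference between members and other spots was compared between V and NV. Of 13600 genes 0 were called (0.0%), with 378 at an unadjusted p under 0.05 in edgeR's test and 0 called by DESeq2. For the 22 type 1 genes the difference was on balance smaller in V, with a median of -0.27 and 21 of 22 below 0. In parenchyma spots, with all 4 sections, the median was -0.10. Over all spots without the V male it was 0.01, with 11 of 22 below 0. Over all spots without the NV female it was -0.01, with 15 below 0. Ager is an example. Its log2 difference between members and other spots was 0.90, 1.41, 0.43 and 1.15, lowest in the V male and highest in the NV female (-0.31 ± 0.25 for V against NV). Mta3, which encodes a subunit of a chromatin remodeling complex, had the lowest p and stood at 31.4, 46.1, 13.0 and 14.6 CPM in members and at 13.6, 17.6, 19.5 and 16.8 CPM in the other spots. It was higher in members of both NV sections and lower in members of both V sections (-1.60 ± 0.35, edgeR quasi-likelihood adjusted p = 0.785). In parenchyma spots it was called, at -1.72 with an adjusted p of 0.0139 in the same test, as 1 of 4 genes of 12546 (0.0319%, with 0.00797% higher and 0.0239% lower). Without the V female 50 genes were called and without the V male 2.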

How the data were processed

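Visium libraries of 4 lung sections, 1 per mouse, were measured. The authors deposited raw UMI counts per gene and spot, made with Space Ranger on mm10 per the labels. Seurat 4.0.3, also named there, had not been applied to these values. Counts were summed per section over members and over the other spots with at least 2000 UMIs. The members, gene lists and named genes were chosen with earlier results of these data known. Sums were tested with edgeR 4.0.16 (TMM, filterByExpr, quasi-likelihood, Benjamini-Hochberg) in R 4.3.3, with the section as a block where members were compared within sections; a gene was called where the adjusted p lay below 0.05 and the log2 change beyond 0.25 either way. The SE is the log2 fold change divided by the root of F. Rule genes stayed in library sizes and out of the tests. The labels say that the sections were processed together. Each p-value for V against NV members measures the spread between single mice. With the section as a block, a p-value measures the spread across mice of the difference within a section, and the level of each mouse is set aside. The study tested spots, which are not replicates, so its Wilcoxon test was not used. DESeq2 1.42.0 and other choices of spots, filters and scaling were tried as alternatives. Of 32285 genes, 31490 (97.5%) had a symbol in the GENCODE vM21 annotation (GRCm38), which gave coordinates. Genes were named if they were rule markers, type 1 genes or the lowest in p of other lists, if the study names them in the parenchyma, or if they were among the 10 largest rises and falls called with at least 20 CPM and 1 direction in every section (the 5 lowest in p each way where fewer were called).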

Additional observations from a re-analysis of the deposited data

Results flagged for a closer look

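Spots under 2000 UMIs were not used in any comparison. In these spots the 5 rule markers summed to 2326 CPM in the V male (271 UMIs in 76 spots) and to 1706 CPM in the V female (265 UMIs in 127 spots), above the 845 CPM of the NV male (51 UMIs in 61 spots) and the 848 CPM of the NV female (29 UMIs in 37 spots). The V values lay above both control sections, and the difference was not tested. Members stood in the same order of groups, at 2481 and 2470 CPM in NV and 3714 and 2884 CPM in V. The same markers chose the members, so that order is not independent. In the other spots with at least 2000 UMIs the groups overlapped, at 1081 and 801 CPM in NV and 2100 and 1025 CPM in V.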

How the results depend on the processing

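Of members against other spots, 1269 genes were called, 585 with DESeq2, 195 with sums of spots thinned to 2000 UMIs, 282 in parenchyma spots and 764 with members chosen on one random part of the UMIs and measured on the other (an alternative chosen after seeing the data). The range with 1 section left out was 412 to 2153. The 22 type 1 calls became 15 to 22 under these settings. Without the section as replicate block 0 genes and 0 type 1 genes were called. Against type 2 rich spots, 375 genes became 118 with DESeq2, 139 with the score on thinned spots, 72 with thinned sums (10 of 22 type 1 genes) and 245 to 346 with 1 section left out. Without the replicate block 2 genes and 0 type 1 genes were called. In V against NV members 0 calls became 6 with DESeq2, 93 with no filter on low counts and 0 to 98 with 1 section left out. The replicate number stands for sex and was not taken to pair mice. Male minus female differences correlated between groups at 0.11 over 7711 genes. The V male section also differed in tissue make-up, so this value cannot show whether effects of sex were shared. A fit with sex as replicate block called 2. For the member difference between V and NV, 0 became 4 in parenchyma spots and 0 to 50 with 1 section left out.

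Among genes not called, all 12 type 2 genes went from above 0 to below 0 in parenchyma spots, as did 5 of 7 general capillary genes. Only a part of the named genes was followed through every setting. Of that part, directions turned for Fibin with thinned sums (-0.068, and -0.13 against type 2 rich spots) and for Tek against type 2 rich spots with thinned sums (-0.070). In parenchyma spots they turned for Lpcat1 (-0.15), Lamp3 (-0.16), Car4 (-0.015), Ptprb (-0.00097) and, for the member difference, Ighm (-0.047). The cause was not tested. Counts per group were limited by 2 sections each.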

Other observations

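Spots were also thinned to 2000 UMIs each before the score was computed. Of the members of the main rule, 32 of 78, 20 of 44, 77 of 149 and 99 of 193 were chosen again. The thinned UMIs were part of those that chose the main members, so some of this agreement was built in. In parenchyma spots the 4 genes whose member difference was called between V and NV were Mta3, Lars2, a mitochondrial leucyl-tRNA synthetase (0.57), Hbb-bs, a beta globin (-0.32), and Myh6, a cardiac myosin (-0.45), with edgeR's quasi-likelihood test. They were named after their values were seen. Over all spots, the log2 difference of Hbb-bs between members and other spots overlapped between the groups. It was 0.0012 and 0.91 in NV and -0.27 and 0.46 in V. Lars2 is given over all spots with at least 2000 UMIs, where its member difference was not called. It stood there at 750 and 375 CPM in NV and 600 and 278 CPM in V members. In the other spots it stood at 885 and 449 CPM in NV and 500 and 171 CPM in V.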
